A study of Rattus norvegicus with 28 samples.

Results

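Chondroitin sulfate proteoglycans are matrix and cell surface proteins that carry chondroitin sulfate sugar chains, and tenascins are large glycoproteins that link them to one another and to cells. In the central nervous system, the lecticans (aggrecan, brevican, neurocan and versican) bind hyaluronan through link proteins, and tenascin R cross-links them into perineuronal nets, the dense coats around certain neurons. After spinal cord injury (SCI), several of these proteins accumulate in the scar around the lesion, where their sugar chains restrain the growth of axons. Described here are 10 such genes of the rat spinal cord: Acan, Bcan, Ncan and Vcan (the lecticans), Hapln1 (a link protein), Tnc and Tnr (tenascins C and R), Cspg4 (NG2), Cspg5 (neuroglycan C) and Ptprz1 (a receptor-type phosphatase whose secreted form is phosphacan). Their probes were found by gene name in the array annotation, and they make up 10 of the 35469 gene names and 16 of the 41012 probes on the array.

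RNA of adult female Sprague Dawley rats was measured by single-colour microarrays, with 28 samples in 7 groups of 4 animals. T0 animals were uninjured (sham in the labels). T1, T2, T4 and T8 animals received a severe 250 kdyn contusion at the eighth thoracic level and were killed 1, 2, 4 and 8 weeks later. T1_NPC and T2_NPC animals received the same contusion plus ectopic transplantation of neural progenitor cells (NPCs), either right after injury and killed at week 1, or 1 week after injury and killed at week 2. The NPCs came from adult rat spinal cords that had themselves been injured 1 week earlier, injured control animals were injected with cell-free medium, and the post-surgery care given for all animals included the immunosuppressant tacrolimus from the day before transplantation. Each sample was a 1.5 cm piece of cord that held the injury epicentre, with all of its cell types, so fewer cells of a type and less RNA per cell cannot be told apart, and donor and host RNA were not separated.

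Values are log2 intensities, quantile-normalized by the study, and the value of a gene is the mean of its probes. Calls rest on limma across all 35469 gene names with a Benjamini-Hochberg adjusted p under 0.05. On each array, between 74.5% and 82.7% of spots were well above background, and none was saturated. Precision is set by the number of arrays. For 16 of the 28 samples, the value table column has the rank order of a scanner output that was deposited under a sample of another group. This concerns 2 of 4 samples in T0, T2 and T8, 3 of 4 in T1 and T4, 4 of 4 in T1_NPC and 0 of 4 in T2_NPC. The value table, used here, names each sample by its own column. With the arrays given the samples that their scanner outputs were deposited under, 0 of the 10 genes were called in any comparison. In that arrangement limma called 0 of the 35469 names between T1 and T0 (2426 had an unadjusted p under 0.05), where the value table gave 15657. The 8 time course samples without this conflict were all scanned in the first of 3 sessions, so results from those undisputed samples alone are given beside the main ones. They number 2 in T0, T2 and T8 but 1 in T1 and T4, so at T1 and T4 such a value rests on 1 sample, assumed to vary like the other groups. By the value table's names, all transplanted samples were scanned in session 3 and lay on slides of their own, so transplantation cannot be told apart from slide and session. By the deposited names, the T1_NPC scanner outputs came from session 2, also on a slide of their own.

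The probe sequences here, printed 5′ to 3′ as the array design gives them, belong to the genes with the largest differences from T0 and to brevican. Of the brevican probes, the pair that moved together is printed, and A_44_P486343, which did not move with them, is left out. Each printed sequence is the stretch of transcript whose abundance the array reads.
Tnc, A_43_P15638: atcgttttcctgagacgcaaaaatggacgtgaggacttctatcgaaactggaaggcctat
Tnc, A_43_P19661: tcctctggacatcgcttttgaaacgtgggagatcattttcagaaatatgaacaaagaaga
Vcan, A_44_P158798: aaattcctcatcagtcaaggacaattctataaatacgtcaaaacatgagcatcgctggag
Acan, A_43_P12154: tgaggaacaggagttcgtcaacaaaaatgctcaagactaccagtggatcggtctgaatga
Hapln1, A_44_P120736: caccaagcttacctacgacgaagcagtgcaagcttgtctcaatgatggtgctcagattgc
Cspg5, A_44_P172701: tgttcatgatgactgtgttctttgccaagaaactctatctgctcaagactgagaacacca
Bcan, A_44_P359745: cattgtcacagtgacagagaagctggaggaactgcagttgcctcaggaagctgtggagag
Bcan, A_44_P372251: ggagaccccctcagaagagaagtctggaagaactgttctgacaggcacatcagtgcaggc

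In the array annotation (rat build rn4), the Vcan probe lies at chr2:19714573-19714632 on the minus strand and the Hapln1 probe at chr2:19636823-19636882 on the plus strand. The Acan probe lies at chr1:134846027-134846595 on the plus strand, a span longer than its 60 bases, which places it across an intron. The Cspg5 probe lies at chr8:114625977-114626036 on the plus strand. The Bcan probes lie at chr2:180074580-180074639 and chr2:180073505-180073564 on the minus strand. Both Tnc probes are unmapped in that annotation.

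The study followed the cord over 8 weeks to see how its transcriptome changes as the lesion matures. Against T0, limma called 7 of the 10 genes at week 1 (4 higher, 3 lower), when 44.1% of all names were called. At week 2 it called 7 (4 higher, 3 lower) against 40% of all names. At week 4 it called 8 (5 higher, 3 lower) against 38.5%, and at week 8 it called 6 (3 higher, 3 lower) against 39.7%. Tnc and Ncan were higher and Acan, Hapln1 and Cspg5 were lower at all 4 times. The 10 genes thus moved in both directions, with a median log2 fold change of 0.23 at week 1 and 0.08 at week 8, where the medians of all names were -0.10 and -0.04.

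**Figure D1:**
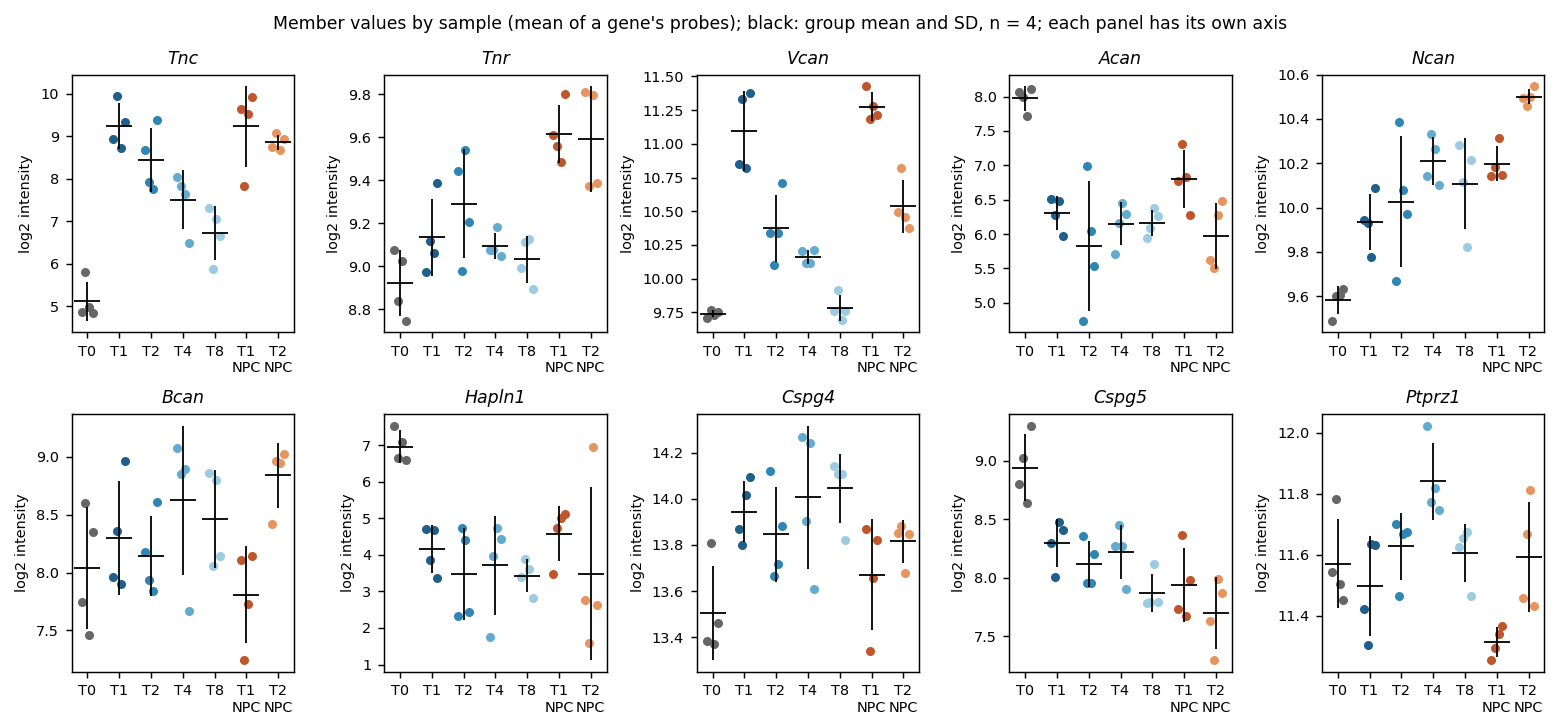
Log2 intensity of each of the 10 genes (vertical axes, one scale per panel) in the 4 samples of each of the 7 groups (points), with the group mean and SD in black. Tnc and Vcan peak at T1 and decline towards T8, Acan and Hapln1 lie lower in nearly all injured samples than in T0, and Bcan spreads widely within every group.

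Tenascin C, a matrix protein of developing and injured tissue, showed the largest rise. In T0 the samples had log2 intensities of 4.85, 5.80, 4.98 and 4.83, and in T1 they had 8.94, 9.95, 8.72 and 9.33. All T1 samples lay above all T0 samples. The difference was 4.12 on the log2 scale (SE 0.43), a 17.4-fold rise (adjusted p = 5.2e-08). Levels then came down while staying above T0. The T2 samples had 8.68, 7.92, 7.75 and 9.38, which was 9.96-fold over T0 (adjusted p = 1.6e-06). At T4 the samples had 8.04, 7.82, 7.65 and 6.49, a 5.22-fold rise (adjusted p = 0.00011). By T8 the samples had 7.30, 5.87, 7.06 and 6.66, a 3.05-fold rise (adjusted p = 0.0043), and the lowest of them was close to the highest T0 sample at 5.80.

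No step between neighbouring times was called for Tnc, with log2 differences of -0.80, -0.93 and -0.78, but from T1 to T8 it fell by 2.51 on the log2 scale (SE 0.43, adjusted p = 0.00032). Both Tnc probes gave this course, with a Pearson r of 0.93 between them over 28 samples. The second probe, A_43_P19661, was well above background on 1 of the 4 T0 arrays, so its 3.90 log2 rise at T1 starts near background, whereas A_43_P15638, detected on all 28 arrays, rose by 4.34. Within the first scanning session the T1, T2, T4 and T8 differences of Tnc were 4.02, 2.92, 1.57 and 1.35 on the log2 scale, and within the second they were 4.02, 3.72, 2.52 and 1.87. Among the 10316 named features detected on every array, those most like Tnc across the 28 samples were Top2a (r = 0.96), a topoisomerase of dividing cells, Col7a1 (r = 0.95), a collagen chain, and Parp1 (r = 0.95), a DNA repair enzyme. All samples share the contrast of injured and uninjured cord, so these r values describe a shared course only. Markers of proliferation moved the same way, with 3 of 3 higher at T1 and a mean level of 6.08 to 6.45 in T0, 9.52 to 10.14 in T1 and 7.19 to 7.59 in T8. Fibroblast and pericyte markers had 4 of 5 higher at T1, with a median log2 fold change of 4.63. Their part in the Tnc result was not tested.

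Versican, a large lectican of growing and loosely packed matrix, rose early, and the mean of its 2 probes returned to the T0 level. T0 samples had 9.71, 9.77, 9.73 and 9.75, a narrow spread. T1 samples had 10.85, 11.33, 10.82 and 11.37, all above T0, a difference of 1.36 (SE 0.13, adjusted p = 1.4e-08). The rise was 1.55-fold at T2 (10.34, 10.10, 10.34 and 10.71, adjusted p = 0.00039). At T4 the samples had 10.20, 10.11, 10.12 and 10.21, a 1.34-fold rise (adjusted p = 0.013). At T8 they had 9.76, 9.92, 9.69 and 9.76 and overlapped T0, with a difference of 0.04 (SE 0.13, adjusted p = 0.85). With the undisputed samples alone, the differences were 1.14 at T1 (1 sample, adjusted p = 0.0053), 0.50 at T2 (2 samples, adjusted p = 0.0496) and 0.49 at T4 (1 sample, adjusted p = 0.11).

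Versican was the only one of the 10 genes called between neighbouring times: it fell by 0.72 from T1 to T2 (SE 0.13, adjusted p = 0.0046), where 1.48% of all names were called. Of the 10 genes, limma called 0 from T2 to T4 (1 had an unadjusted p under 0.05, with 0.0761% of all names called) and 0 from T4 to T8 (2 had an unadjusted p under 0.05, with 0.0902% called). From T1 to T8 it fell by 1.31 (adjusted p = 3.8e-07), one of 2 genes called there with Tnc, against 9.87% of all names. The T1 to T2 call was lost when only those groups entered the fit (adjusted p = 0.18) and with the undisputed samples alone, where the difference was -0.63 (adjusted p = 0.34). Of all 41012 probes, limma called 45% when T1 was set against T0, and 40.6%, 39.1% and 40.5% for the later times in order. The printed Vcan probe differed from T0 by 1.86, 0.86, 0.72 and 0.26 at T1, T2, T4 and T8. The other probe, A_44_P1017144 at chr2:19712731-19712790, lies further towards the 3′ end of the transcript and differed by 0.85, 0.40, 0.12 and -0.18, with calls at T1 and T2 only. At T8 the probes thus parted around their mean. The printed probe ran from 8.84 to 9.08, against 8.59 to 8.76 in T0. A_44_P1017144 ran from 10.55 to 10.75, against 10.75 to 10.87 in T0. Over the 28 samples the 2 probes correlated at r = 0.86. Features most like Vcan were Haus4 (r = 0.94), a subunit of a spindle complex, Col4a2 (r = 0.94), a basement membrane collagen, and Eif4e2 (r = 0.93), a cap-binding protein.

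Aggrecan, the lectican that forms most of the body of perineuronal nets, fell and stayed low. T0 samples had 8.07, 8.00, 7.72 and 8.11. T1 samples had 6.51, 6.27, 6.48 and 5.98, a 3.17-fold fall (log2 difference -1.66, SE 0.32, adjusted p = 0.00015). Every injured sample of the time course lay below every T0 sample. At T2 the samples had 4.74, 6.99, 6.05 and 5.53, a 4.43-fold fall (adjusted p = 8.0e-06), with the widest spread of any group (SD 0.94, n = 4). At T4 and T8 the falls were 3.53-fold (samples from 5.72 to 6.45, adjusted p = 7.1e-05) and 3.50-fold (5.94 to 6.38, adjusted p = 6.5e-05). No change between injured times was called. The T2 difference was -1.38 within the first session and -2.92 within the second, and it was called in the undisputed samples (adjusted p = 0.034), as was T8 (adjusted p = 0.012). The single undisputed T1 and T4 samples gave adjusted p = 0.072 and 0.049.

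The link protein gene Hapln1, which ties lecticans to hyaluronan in perineuronal nets, fell furthest. T0 samples had 7.54, 6.64, 7.09 and 6.59, and its probe was well above background on all 4 arrays. In T1 the values were 4.71, 3.87, 4.69 and 3.36 with 3 of 4 arrays well above background, in T2 they were 2.34, 4.73, 4.40 and 2.44 with 1 of 4, and in T4 they were 1.74, 3.98, 4.73 and 4.43 with 2 of 4. None of these samples reached the T0 range. The log2 differences were -2.81 at T1 (SE 0.82, adjusted p = 0.0072), -3.49 at T2 (adjusted p = 0.0014) and -3.25 at T4 (adjusted p = 0.0028). Since only some arrays of these groups measured the probe above background, the sizes are uncertain. In T8, with 3.40, 3.90, 3.61 and 2.83, the probe was well above background on 0 of 4 arrays, so only an approximate limit can be given. Against the lowest signal of any spot well above background on each array, the fall from T0 came to 9.17-fold (adjusted p = 0.0012 for the fitted difference). That limit may be too low for this probe. In T1_NPC it had 3.48, 4.74, 5.01 and 5.11 with only 2 of 4 arrays well above background. The true fall at T8 may therefore be smaller than 9.17-fold. With the undisputed samples alone (1 each in T1 and T4) the differences at T1, T2 and T4 were -2.60, -2.75 and -2.88, and Hapln1 was not called at any time (adjusted p = 0.078 to 0.35).

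Acan and Hapln1 moved together across the 28 samples (r = 0.81), and the features most like them were genes of neurons. For Acan these included Nat8l (r = 0.95), which makes N-acetylaspartate, and Cabp1 (r = 0.95), a calcium-binding protein. For Hapln1 they were Syn2 (r = 0.91), a synaptic vesicle protein, Slc32a1 (r = 0.91), the transporter that loads GABA and glycine into vesicles, and Pnmal2 (r = 0.90). Hapln1 was well above background on only 13 of the 28 arrays. All samples also share the contrast of injured and uninjured cord, so these r values describe a shared course only. All 7 neuron markers measured (Snap25, Syt1, Nefl, Nefm, Slc17a6, Slc32a1 and Pvalb) were lower than T0 at each of the 4 times. Their median log2 fold change was -1.87 at T1 and -2.17 at T8, and their mean level ran from 13.77 to 14.07 in T0 and from 11.09 to 12.52 in the injured samples of the time course. Pvalb, carried by many neurons with perineuronal nets, fell by 2.60 on the log2 scale at T1. The part of these neuronal genes in the Acan and Hapln1 falls was not tested.

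Neurocan, a lectican made by glia and neurons, rose modestly at every time. T0 samples had 9.49, 9.60, 9.61 and 9.63. The T1 samples, at 9.94, 9.93, 9.78 and 10.09, all lay above them, as did every later injured sample. The rises were 1.28-fold at T1 (adjusted p = 0.019), 1.36-fold at T2 (adjusted p = 0.0041), 1.54-fold at T4 (10.14, 10.33, 10.27 and 10.10, adjusted p = 0.00018) and 1.44-fold at T8 (adjusted p = 0.00095). At T1 the call was lost without T0 replicate 1 or without T1 replicate 4. In the undisputed samples the T2 and T8 rises of 0.69 and 0.62 were called (2 samples each), and the single T1 and T4 samples gave 0.39 (adjusted p = 0.081) and 0.55 (adjusted p = 0.030). Features most like Ncan were Ncam1 (r = 0.85), an adhesion molecule, Rcan1 (r = 0.85), a calcineurin inhibitor, and Ppie (r = 0.85).

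Brevican, the lectican of mature brain and cord matrix, had no call against T0 at any time after injury alone. Its gene values ran from 7.46 to 8.61 in T0, from 7.90 to 8.97 in T1, from 7.84 to 8.61 in T2, from 7.66 to 9.08 in T4 and from 8.06 to 8.86 in T8, so all groups overlapped. This mean joins 2 probes that moved together with 1 that did not. Both printed probes (r = 0.92) spread widely within groups: A_44_P372251 had 11.64, 13.48, 11.89 and 13.79 in T0, and 12.13, 13.34, 13.22 and 13.81 in T1. In the time course this spread followed the scan session. On A_44_P372251, session 1 samples ran from 11.64 to 12.61 and session 2 samples from 13.22 to 13.84. On A_44_P359745 they ran from 7.88 to 8.77 and from 8.95 to 9.83. The cause of this split was not tested. The third probe, A_44_P486343 at chr2:180072919-180072978, derives from an expressed sequence tag and is annotated on the plus strand, opposite to the gene. It was well above background on 1 of 28 arrays and had r = -0.12 and -0.02 with the others. Features most like the Bcan mean were Lypd1 (r = 0.88), Crocc (r = 0.87) and Ift122 (r = 0.87), the last a part of the ciliary transport machinery.

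Tenascin R, the net cross-linker made largely by oligodendrocyte lineage cells and neurons, also rests on a pair of unlike probes. Gene values were 9.08, 8.84, 9.03 and 8.75 in T0 and 9.44, 8.98, 9.54 and 9.20 in T2, which overlapped. The T2 difference of 0.37 (SE 0.13, adjusted p = 0.027) was the only call of Tnr over time, and it came from A_43_P16071. That probe derives from a clone described as 5′ untranslated sequence, is annotated at chr13:74773397-74773456 on the strand opposite to the gene, and lies 573 kb from the other probe. It rose by 0.80 at T2 (adjusted p = 0.0024), whereas A_43_P11678, at chr13:75346038-75346096 on the gene's strand, differed by -0.07 (adjusted p = 0.80). The probes correlated at r = 0.18. With A_43_P11678 alone the T2 difference of Tnr was -0.07 (adjusted p = 0.81). Across all probes with a strand to compare, 95.0% of 12825 lay on the strand that RefSeq gives the gene in a later assembly.

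**Figure D2:**
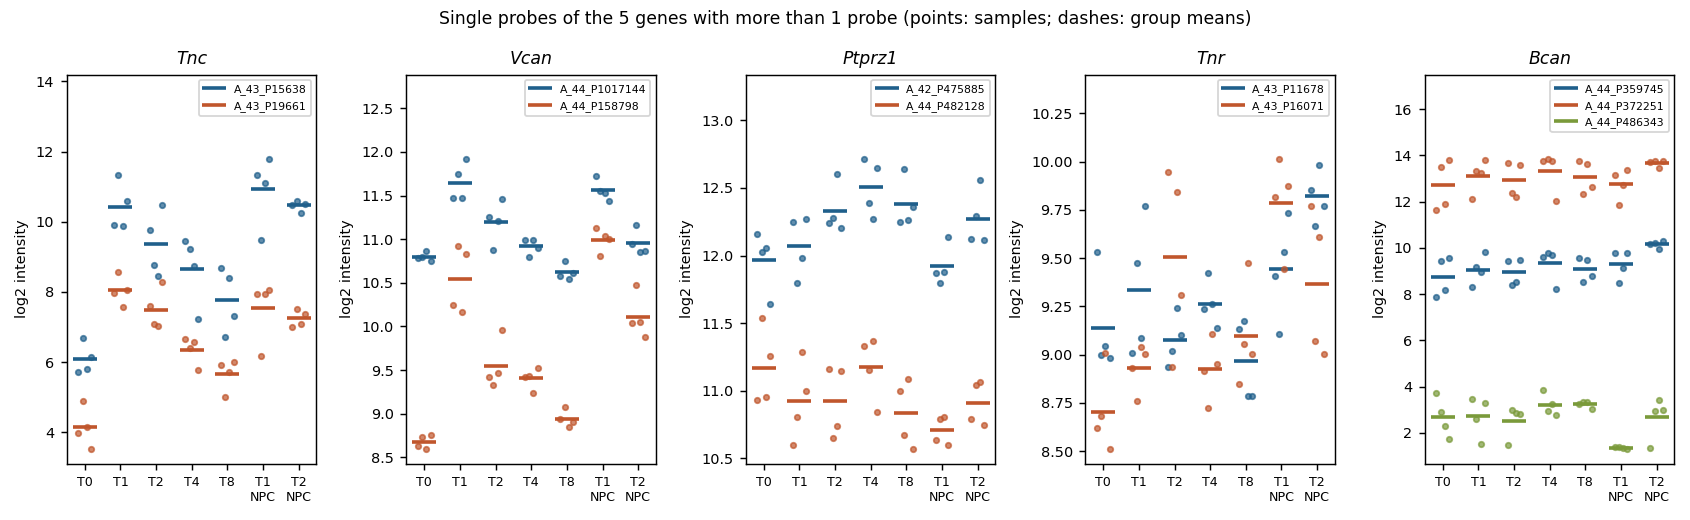
Log2 intensity (vertical axes) of each probe of the 5 genes that have more than 1, by group, with samples as points and group means as dashes. Both probes of Tnc and of Vcan are highest in T1 or T1_NPC and decline from T1 to T8, whereas those of Ptprz1 and Tnr follow unlike courses, and the lowest Bcan probe stays far below the other 2.

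Among the cell surface members, Cspg4, the NG2 proteoglycan of oligodendrocyte precursors and pericytes, rose slightly. T0 samples had 13.38, 13.81, 13.37 and 13.46, and T1 samples had 13.87, 13.80, 14.02 and 14.09. The T0 sample at 13.81 overlapped T1. The differences were 0.44 at T1 (SE 0.15, adjusted p = 0.018), 0.34 at T2 (adjusted p = 0.072), 0.50 at T4 (adjusted p = 0.0091) and 0.54 at T8 (adjusted p = 0.0049). In T8 all samples (14.14, 14.11, 14.11 and 13.82) lay just above T0. At T1 and T4 the call was lost when arrays were scaled to their 75th percentile (adjusted p = 0.084 and 0.058), and at T1 it was also lost without T0 replicate 1, T0 replicate 3 or T1 replicate 4. With the undisputed samples alone, the T8 rise of 0.59 was called (2 samples), and the single T1 and T4 samples gave 0.49 (adjusted p = 0.042) and 0.23 (adjusted p = 0.31). Of 4 oligodendrocyte precursor markers at T1, Pdgfra rose by 0.72 on the log2 scale, Olig1 and Sox10 fell by 0.91 and 0.36, and Olig2 had -0.30 without a call. Their part in the Cspg4 result was not tested.

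Cspg5, a transmembrane proteoglycan of neurons with an extracellular growth factor-like domain, fell at every time. T0 samples had 8.80, 9.02, 8.64 and 9.30, and the T1 samples had 8.29, 8.01, 8.48 and 8.41, all below T0. The falls were 1.56-fold at T1 (adjusted p = 0.0046), 1.77-fold at T2 (adjusted p = 0.00057), 1.65-fold at T4 (adjusted p = 0.0022) and 2.10-fold at T8 (7.78, 7.79, 8.11 and 7.79, adjusted p = 3.1e-05). No later sample reached the lowest T0 value of 8.64. Undisputed samples gave -0.43 at T1 (1 sample, adjusted p = 0.26), -0.77 at T2 (adjusted p = 0.027), -0.82 at T4 (1 sample, adjusted p = 0.053) and -0.93 at T8 (adjusted p = 0.011). Across the 28 samples Ncan and Cspg5 ran in opposite directions (r = -0.75).

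Ptprz1, which codes for a phosphatase on glia and precursors and for secreted phosphacan, had gene values of 11.54, 11.78, 11.50 and 11.45 in T0 and 12.02, 11.77, 11.82 and 11.75 in T4. The T4 difference of 0.27 (SE 0.11, adjusted p = 0.046) was its only call over time, the groups overlapped, and the call was lost under several settings, the 75th percentile scaling among them (0.18, adjusted p = 0.20). The 2 probes did not move together (r = -0.02). On A_44_P482128, session 1 samples lay below session 2 samples in every time course group, with 10.93 and 10.95 against 11.54 and 11.26 in T0. A_42_P475885 did not have this order, with 12.16 and 12.05 against 12.02 and 11.64 in T0. The cause was not tested. A_42_P475885, at chr4:49467897-49467956 and assigned to transcript variant 1, rose by 0.54 at T4 (adjusted p = 0.0048) and 0.41 at T8 (adjusted p = 0.027). A_44_P482128, at chr4:49418692-49418751 and assigned to transcript variant 2, differed by 0.00 at T4 (adjusted p = 0.99) and -0.34 at T8 (adjusted p = 0.12). Whether the probes differ from each other in these changes was not tested.

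In the rat genome each lectican gene lies next to a link protein gene, and their courses were set side by side. Vcan and Hapln1 probes lie 75.8 kb apart on chromosome 2, where at T1 Vcan rose by 1.36 and Hapln1 fell by 2.81. Acan and Hapln3 probes lie 6.57 kb apart on chromosome 1, and Hapln3 fell by 0.66 at T1 and 1.14 at T8. Ncan and Hapln4 probes lie 7.71 kb apart on chromosome 16. Hapln4, a link protein of perineuronal nets, fell by 0.75 at T1 (adjusted p = 0.029) but differed by -0.65 at T8 (adjusted p = 0.061), while Ncan was higher at both times. Bcan and Hapln2 probes lie 30.1 kb apart on chromosome 2, and Hapln2, a link protein of the nodes of Ranvier, fell by 0.95 at T1 and 1.07 at T8. So all 4 link protein genes were lower at T1, whereas of the neighbouring lecticans Vcan and Ncan were higher, Acan was lower and Bcan was not called.

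**Figure D3:**
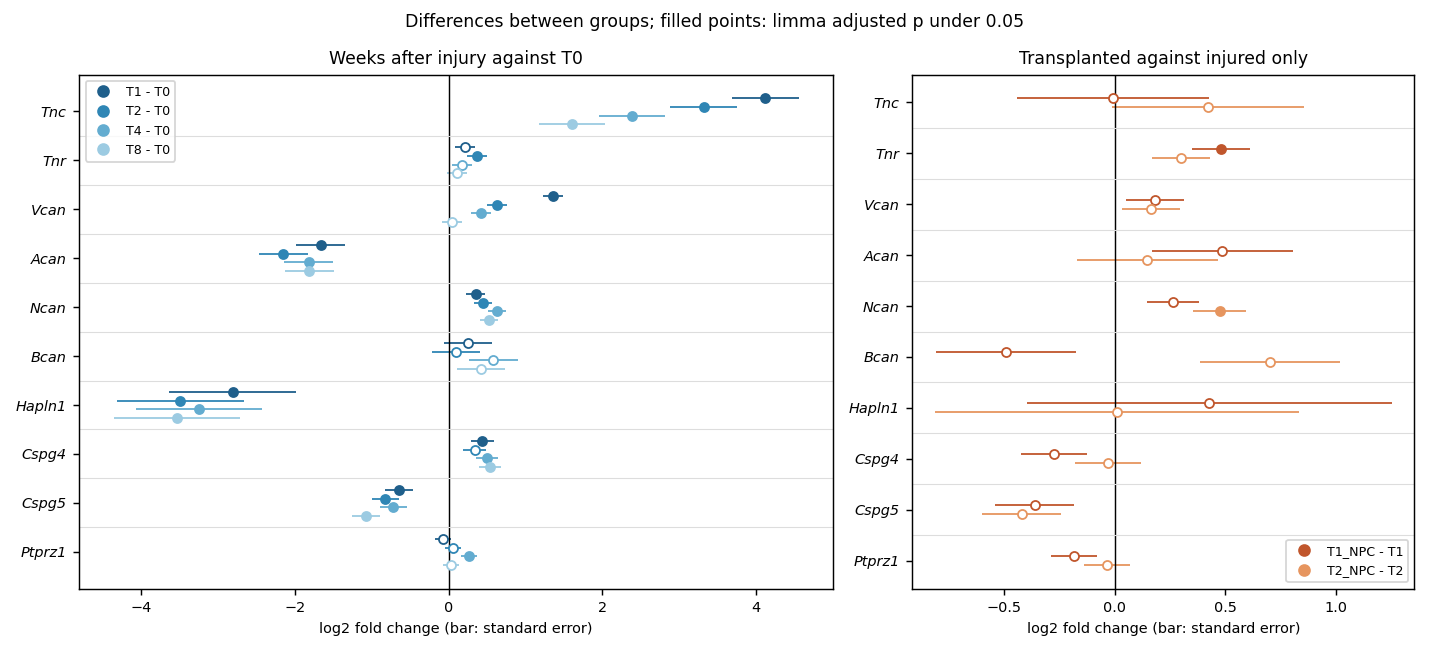
Log2 fold change with its standard error (horizontal axes) for the 10 genes, at left for each time after injury against T0 and at right for T1_NPC against T1 and T2_NPC against T2; filled points passed an adjusted p of 0.05. The Tnc difference shrinks from 4.12 to 1.61 over 8 weeks, and only Tnr (T1_NPC) and Ncan (T2_NPC) are filled at right.

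The study transplanted NPCs to see how the injured transcriptome responds at an acute and at a subacute stage. In T1_NPC against T1, limma called 1 of the 10 genes, Tnr (higher), when 11.9% of all names were called. In T2_NPC against T2 it called 1, Ncan (higher), against 9.47% of all names. The 2 transplantation effects were not called different from one another for any of the 10 genes, where 0.299% of all names were called and 1 of the 10 had an unadjusted p under 0.05. Tnr samples had 9.61, 9.56, 9.49 and 9.80 in T1_NPC and 8.97, 9.12, 9.06 and 9.38 in T1, a difference of 0.48 (SE 0.13, adjusted p = 0.019). These groups did not overlap. The opposite-strand probe carried the call (0.85, adjusted p = 0.0079), and the probe on the gene's strand had 0.11 (adjusted p = 0.72). In T2_NPC the reverse held: A_43_P11678 rose by 0.75 over T2 (adjusted p = 0.0049) and A_43_P16071 had -0.14 (adjusted p = 0.72). Of all probes, 12.5% were called in T1_NPC against T1 and 10.6% in T2_NPC against T2, and the difference between the 2 Tnr probes was not tested.

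Neurocan had 10.50, 10.46, 10.50 and 10.55 in T2_NPC and 9.67, 10.39, 10.08 and 9.97 in T2. The transplanted samples lay in a narrow band above all T2 samples, a 1.39-fold difference (0.47 on the log2 scale, SE 0.12, adjusted p = 0.014). In T1_NPC it had 10.14, 10.18, 10.31 and 10.15, above all T1 samples, but the difference of 0.26 was not called (adjusted p = 0.16). Both calls were lost with slide as a random block (adjusted p = 0.065 for Tnr and 0.052 for Ncan) and when only the compared groups entered the fit (0.10 and 0.096). Leaving out T2 replicate 1 ended the Ncan call, and leaving out T1 replicate 1, T1 replicate 3 or T1_NPC replicate 4 ended the Tnr call. With T2 reduced to its 2 undisputed samples, Ncan had 0.27 (adjusted p = 0.11), whereas Bcan (0.95, adjusted p = 0.011) and Tnc (1.02, adjusted p = 0.017) were called higher in T2_NPC. Those 2 samples were scanned in session 1. The 2 T2 samples of session 2 had Tnc at 8.68 and 9.38, where T2_NPC ran from 8.67 to 9.06. On the Bcan probe A_44_P372251 they had 13.66 and 13.58, within the T2_NPC range of 13.47 to 13.77. Both calls thus depend on which T2 samples are kept.

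The genes that had fallen or risen most after injury had no call with transplantation. Tnc had 9.64, 7.83, 9.51 and 9.92 in T1_NPC, a difference of -0.01 from T1 (SE 0.43), and 8.75, 9.06, 8.67 and 8.94 in T2_NPC, a difference of 0.42 from T2 (SE 0.43). Acan had 6.77, 7.31, 6.83 and 6.28 in T1_NPC (0.48 over T1, SE 0.32, adjusted p = 0.35) and 5.63, 5.51, 6.28 and 6.47 in T2_NPC (0.15, SE 0.32). Hapln1 had 3.48, 4.74, 5.01 and 5.11 in T1_NPC and 2.78, 1.60, 6.95 and 2.63 in T2_NPC, where 1 sample lay within the T0 range and the SD was 2.36. These standard errors leave room for differences in either direction. Bcan differed by -0.49 in T1_NPC and 0.70 in T2_NPC, neither called. The -0.49 came mostly from the opposite-strand probe A_44_P486343, near background, with group means of 2.71 in T1 and 1.35 in T1_NPC. The printed Bcan probes moved less and in opposite directions. A_44_P359745 had means of 9.06 in T1 and 9.30 in T1_NPC, and A_44_P372251 had 13.12 and 12.77. In single samples, A_44_P359745 had 10.16, 10.21, 9.96 and 10.31 in T2_NPC against 9.42, 8.41, 8.50 and 9.45 in T2 (1.21, adjusted p = 0.065). The printed Vcan probe was called higher in T2_NPC (0.57, adjusted p = 0.025) while A_44_P1017144 went the other way without a call (-0.24, adjusted p = 0.20) and the gene mean was not called (0.16, adjusted p = 0.49).

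Against T0, which both transplanted groups and all injured groups share as control, 8 of the 10 genes were called in T1_NPC (4 higher, 4 lower, with 52.7% of all names called) and 8 in T2_NPC (5 higher, 3 lower, with 47.7%). In T1_NPC, Tnc (4.11), Vcan (1.54), Tnr (0.69) and Ncan (0.61) were higher and Hapln1 (-2.38), Acan (-1.18), Cspg5 (adjusted p = 4.9e-05) and Ptprz1 (-0.26) were lower. The Tnr value came mostly from the opposite-strand probe (1.08), and with A_43_P11678 alone Tnr had 0.30 (adjusted p = 0.12). In T2_NPC, Tnc (3.74), Ncan (0.92), Bcan (0.80), Vcan (0.80) and Tnr (0.67) were higher and Hapln1 (-3.48), Acan (adjusted p = 1.5e-05) and Cspg5 (-1.24) were lower. Hapln1 was well above background on 2 of 4 T1_NPC and 1 of 4 T2_NPC arrays, so its values there are partly set by background. The Ptprz1 call (adjusted p = 0.044) and the Bcan call (adjusted p = 0.041) were the weakest and were lost with slide as a random block.

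Genes that make, bind and cut these proteoglycans were taken from lists of related genes, whose counts stand against 44.1% of all names called in either direction at T1 and 39.7% at T8. Of 17 enzymes that build or sulfate chondroitin chains, 7 rose and 2 fell at T1 (median log2 fold change 0.37), and 7 rose and 1 fell at T8 (0.31). Dse, which turns chondroitin into dermatan sulfate, rose by 1.93 at T1 and 1.64 at T8, and Chst14, a dermatan sulfotransferase, rose by 1.62 at T1. Chst15, which adds a further sulfate to already sulfated chains, rose by 1.64 at T8. Chsy3, a chain polymerase, fell by 1.60 at T1 and 2.04 at T8, whereas its relative Chsy1 rose by 1.60 and 1.39.

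Of 12 enzymes that cleave the core proteins, chains or hyaluronan, 9 rose and 0 fell at T1 (median 1.24), and 9 rose and 0 fell at T8 (median 0.93), where 44.1% and 39.7% of all names were called. The matrix metalloproteinases Mmp9 and Mmp2 rose by 5.41 and 2.59 at T1, and Adamts1, an aggrecan-cleaving protease, by 1.88 at T8. From T1 to T8, Mmp9 fell by 2.70 and Mmp3 by 2.42. Microglia and macrophage markers, 6 of 6 higher at T1 with a median of 2.75, moved with these rises, and their part was not tested.

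Of 12 receptors and binding partners, 3 rose and 4 fell at T1 (median -0.12), beside 44.1% of all names called. The hyaluronan receptor Cd44 rose by 1.93 and the integrin chain Itgb1 by 1.41, while L1cam, an axonal adhesion molecule, fell by 1.06 and Rtn4r, the Nogo receptor, by 0.99. Ptprs, the receptor phosphatase that binds chondroitin sulfate, fell by 0.50 at T1 and by 0.45 at T8. Among hyaluronan synthases, Has1 rose by 3.32 at T1 and 1.74 at T8. Of 9 other chondroitin or dermatan sulfate proteoglycans, 4 rose and 2 fell at T1 (median 1.08): lumican (Lum) and decorin (Dcn), small proteoglycans of fibrous tissue, rose by 4.54 and 3.75, and the testicans Spock3 and Spock2 fell by 2.44 and 1.06. Fibroblast and pericyte markers rose beside Lum and Dcn, and their part was not tested.

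**Figure D4:**
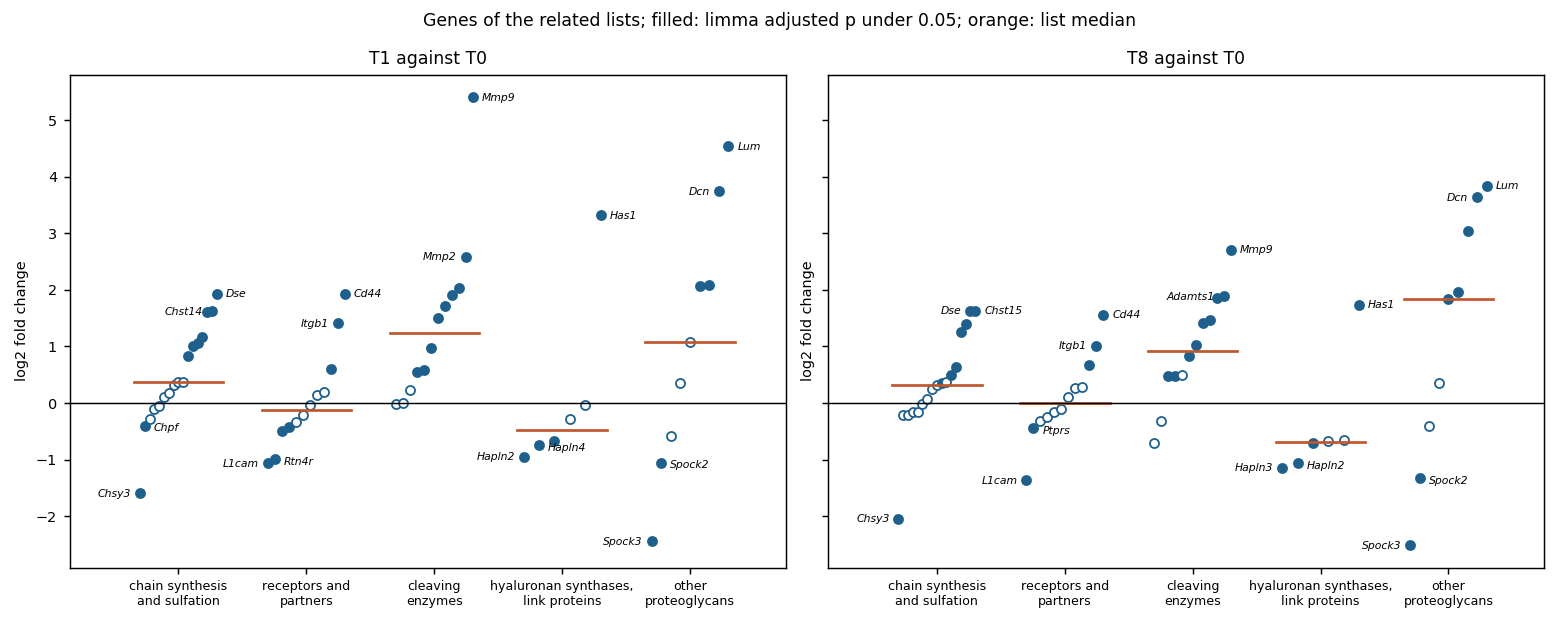
Log2 fold change against T0 (vertical axis) of each gene in 5 related lists at T1 (left) and T8 (right), with filled points past an adjusted p of 0.05, list medians in orange and the largest called rises and falls named. Cleaving enzymes lie mostly above 0 with Mmp9 at 5.41 at T1, and Hapln2, Hapln3 and Hapln4 lie below 0.

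The related lists were then compared with and without transplantation, where 11.9% of all names were called in T1_NPC against T1 and 9.47% in T2_NPC against T2. In T1_NPC against T1, 3 of 17 chain enzymes were called, with B3gat3, which makes the linkage sugar, higher by 0.49 and the sulfotransferases Chst3 and Chst11 lower by 0.79 and 0.76. In T2_NPC against T2, 4 of 17 were called, with B3galt6 (0.59), Csgalnact1 (0.44) and B3gat3 (0.43) higher and Chst11 lower (-0.68). Itgb1 was higher in both (0.67 and 0.65). In T2_NPC, Cntn1, an adhesion partner of Ptprz1 and tenascins, was higher by 0.66, Ptprs by 0.63 and Adamts4, an aggrecan-cleaving protease, by 1.18, while Adamts1 was lower by 0.98. Has3 was lower by 1.32 in T1_NPC (adjusted p = 0.013) and had -0.98 in T2_NPC (adjusted p = 0.070). Neuron, microglia and fibroblast marker lists had no call in either transplantation comparison, whereas 2 of 6 oligodendrocyte markers were higher in T2_NPC. Their part in these results was not tested.

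**Figure D5:**
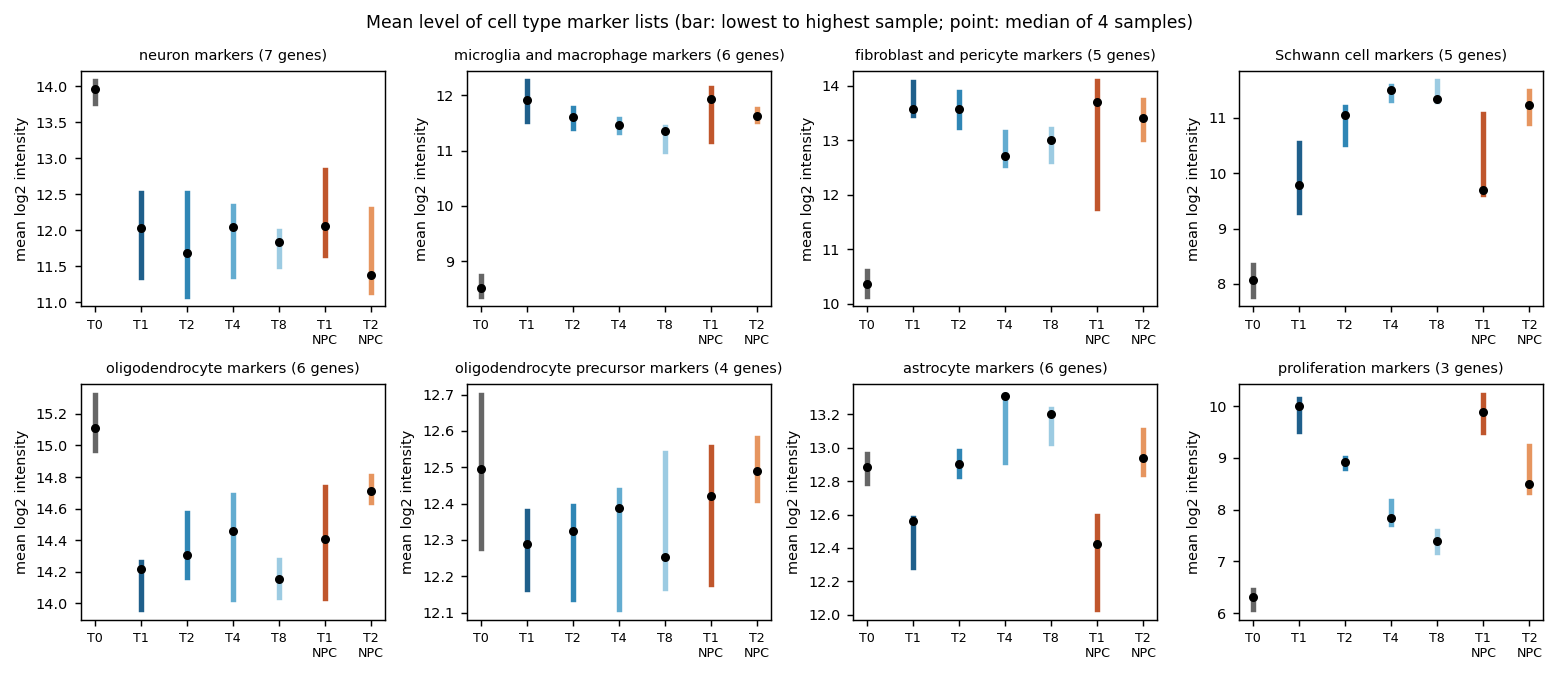
Mean log2 intensity (vertical axes) of 8 lists of cell type markers by group, with bars from the lowest to the highest sample and points at the median of 4 samples. Neuron markers lie below T0 in all injured groups, proliferation markers peak at T1 and decline to T8, and Schwann cell markers climb from T1 to T4.

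Other cell types that the dissected piece could hold were followed by their markers, beside 44.1% of all names called at T1 and 39.7% at T8. Schwann cell markers had 4 of 5 higher at every time, with mean levels of 7.79 to 8.34 in T0 and 11.30 to 11.66 in T8. Oligodendrocyte markers had 5 of 6 lower at T1 (median -0.90) and 6 of 6 lower at T8 (median -0.93). Astrocyte markers had 1 of 6 higher (Gfap, by 0.86) and 3 of 6 lower at T1. Skeletal muscle markers had 2 of 6 higher and 2 of 6 lower at T1, and endothelial markers 2 of 5 higher and 1 of 5 lower. Their part in the changes of the 10 genes was not tested.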

How the data were processed

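The authors deposited scanner outputs (Agilent Feature Extraction 10.7.1.1, per the file headers), whose intensity values are background-corrected per spot, and a table of log2 values after background correction and quantile normalization. Calculations used R 4.3.3 and limma 3.58.1. Of 45018 spots, 1639 controls were left out, spots of 1 probe were averaged to 41012 probes and probes to 35469 gene names. All 28 samples were fitted together with a mean per group, without covariates, with eBayes and Benjamini-Hochberg adjustment over all names; single probes were tested likewise over 41012 probes. Each scanner output was tied to the value table column of the same rank order (Spearman 1, next best at most 0.993), which gave detection flags, slide and session.

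The 10 genes, the related lists and the marker lists were chosen with earlier results of these data known. Named were the 10 genes, per list and comparison up to 2 largest called rises and falls, and the 3 features with the highest Pearson r to each gene (1 of them is not reported here); other genes were named after their values were seen. The 10 genes were compared at T1, T2, T4, T8, T1_NPC and T2_NPC against T0, between times, and with against without transplantation. The test was tried on simulated data. Alternatives were the scanner intensities (both sample assignments), 75th percentile scaling, normexp on median signals (offset 50), undisputed samples, only compared groups, a dim probe filter, the brightest probe, trended robust eBayes, slide or session as a block, the replicate number as a block, a 2-fold minimum and each sample left out, with the removal of opposite-strand probes added after seeing the data. Columns without a sample numbered 0. Figures were drawn with matplotlib.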

Additional observations from a re-analysis of the deposited data

Results flagged for a closer look

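Of 70 gene and group combinations with 4 samples, 6 had a sample standing apart by Dixon's ratio (gap to the nearest sample over the group's range), and chance marks about 1 in 20. In Tnc, T0 replicate 2 was high at 5.80 with the next at 4.98 (ratio 0.845), so the T0 mean of Tnc is raised by 1 sample. In Cspg5, T8 replicate 3 was high at 8.11 with the next at 7.79 (0.966). In Cspg4, T8 replicate 4 was low at 13.82 with the next at 14.11 (0.884). In Bcan, T4 replicate 4 was low at 7.66 with the next at 8.85 (0.841). Of the T4 samples only this replicate was scanned in session 1, whose samples read lower than those of session 2 on both printed Bcan probes. T2_NPC replicate 1 of Bcan was low at 8.42 with the next at 8.95 (0.869). The T2_NPC case came from the third probe, near background, at 1.36 in replicate 1 and 2.95 to 3.42 in the others. On the printed probes replicate 1 had 10.16 and 13.74, within the range of the other samples. In Ptprz1, T2 replicate 2 was low at 11.47 with the next at 11.67 (0.862). No gene of the 10 was called for a difference between the transplantation effects.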

How the results depend on the processing

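The log2 fold changes of the 10 genes were recomputed under settings other than leaving out a sample. Of these, 1830 stayed called in the same direction or stayed uncalled, and direction was not compared for the uncalled ones. A further 115 lost a call, 10 gained one, and 5 that were called in the main fit or the other fit turned direction. With the arrays under the samples that their scanner outputs were deposited under, limma called 0 of the 10 genes in every comparison, although up to 9541 names had an unadjusted p under 0.05 (T2_NPC against T0) and 831 names were called there. Tnr then turned to -0.064 at T2 against T0 and -0.013 in T1_NPC against T0, and Ptprz1 turned to 0.11 in T1_NPC against T0. With the undisputed samples alone, 5 of the 10 genes were called at T2 and 5 at T8, where 11901 and 13314 of the 35469 names were called. In T2_NPC against T2, 2 genes were called, where 7399 of the names were called. T1 and T4 had 1 undisputed sample each, so their counts are not given. With only the compared groups in the fit, 0 were called from T1 to T2, 0 in T1_NPC against T1 and 0 in T2_NPC against T2. With the brightest probe per gene these counts were 0, 0 and 2, and Tnr at T2 against T0 was -0.065, as it was without the opposite-strand probes. That setting, chosen after seeing the data, gave 0 in T1_NPC against T1 and 2 in T2_NPC against T2. With slide as a random block (correlation 0.173) both transplantation counts were 0. With normexp, T1_NPC against T1 had 2 calls, and Cspg4 joined Tnr there (-0.59, adjusted p = 0.0073), while Tnc at T8 had 0.66 (adjusted p = 0.090). A change of at least 2-fold left 4 genes at T1, 3 at T2, 3 at T4, 0 from T1 to T2, 0 in each transplantation comparison, 5 in T1_NPC and 4 in T2_NPC against T0.

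With each sample left out in turn, the counts against T0 ran from 5 to 7 at T1, 6 to 8 at T2, 7 to 9 at T4 and 6 to 6 at T8, from 6 to 8 in T1_NPC and from 7 to 9 in T2_NPC. They stayed at 1 from T1 to T2 and at 2 from T1 to T8, and ran from 0 to 1 in each transplantation comparison. The 75th percentile scaling moved the median of all names at T1 from -0.10 to -0.27. Samples with the same replicate number did not deviate together (median correlation 0.0024 over 84 pairs, -0.34 to 0.30). With the replicate number as a block, 7 genes were called at T1, 7 at T2, 7 at T4, 6 at T8, 7 in T1_NPC and 7 in T2_NPC against T0. The losses were Ptprz1 at T4 (adjusted p = 0.059) and in T1_NPC (0.055) and Bcan in T2_NPC (0.056), and the cause was not tested. Signal near background limits Hapln1, which was well above background on 13 of 28 arrays, and the third Bcan probe, on 1 of 28.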
